A study of Mus musculus with 6 samples.

Results

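The mouse genome carries the genes of its replication-dependent histones in 4 clusters, and all 67 protein-coding genes of the deposited table whose symbol starts with Hist1h, Hist2h, Hist3h or Hist4h are described here, of 22027 genes in all. The choice used names alone and no measured value. Of these genes, 6 encode linker histone H1, 18 encode H2A, 18 encode H2B, 12 encode H3 and 13 encode H4. The Hist1 cluster holds 54 of them on chromosome 13 (GRCm38, bases 21715763 to 23934851). The Hist2 cluster holds 10 on chromosome 3 (bases 96219865 to 96270132), the Hist3 cluster 2 on chromosome 11 (bases 58948920 to 58956830) and Hist4h4 lies alone on chromosome 6 (bases 136801553 to 136804415). In the annotation 62 of the 67 have a longest transcript of a single exon.

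RNA was sequenced from RAW 264.7 cells, a mouse macrophage line transformed by a leukaemia virus, in 2 groups of 3 libraries. The siCTL group received a non-targeting siRNA and the siTET3 group received 1 siRNA directed at Tet3, a dioxygenase that oxidises 5-methylcytosine. In both, 10 pmol of siRNA went into each well by lipofection and cells were collected 48 h later. The comparison addressed how the level of TET3 bears on expression in macrophages. Group membership rests on the sample titles, because the treatment field names siTET3 for all 6 libraries. The labels do not say whether replicates were separate cultures, and p-values then cover only library-to-library spread, possibly of a technical kind.

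Core histones H2A, H2B, H3 and H4 form the octamer around which DNA is wrapped, and H1 binds the linker DNA between nucleosomes. Cells make the bulk of them in S phase from the genes described here, which lack introns for the most part. Their mRNAs end, instead of in a poly(A) tail, in a conserved stem-loop bound by SLBP, and are degraded when replication stops. Some of these genes can also give polyadenylated transcripts, which are known above all from cells that have left the cycle. The libraries were made with a stranded kit for mRNA, of the kind that captures RNA by its poly(A) tail. The levels below are therefore those of reads that such a kit retains, and histone mRNA without a tail was not measured separately.

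A stem-loop of the histone type was found on the sense strand of an annotated transcript in 46 of the 67 genes, against 48 of 21645 other genes (0.222%). It occurred in 8 spellings. One spelling was shared by 26 genes of classes H1, H2A, H2B and H3, including Hist1h1c and Hist3h2a, and another by 7 genes that all encode H4. A further spelling was shared by 6 genes including Hist1h3e, and another by the H4 genes Hist1h4i and Hist2h4. The forms of 6 genes on which the results below turn, or which stand for a spelling, are shown 5′ to 3′ as DNA, with the 16 bases of the stem-loop in capitals and the flanking bases in lower case.
Hist1h1c (H1): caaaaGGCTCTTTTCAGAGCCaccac
Hist3h2a (H2A): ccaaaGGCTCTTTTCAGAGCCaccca
Hist2h2ac (H2A): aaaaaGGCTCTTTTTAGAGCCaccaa
Hist1h3e (H3): aaaacGGCTCTTTTAAGAGCCacctc
Hist1h4i (H4): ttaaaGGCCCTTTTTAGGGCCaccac
Hist1h4d (H4): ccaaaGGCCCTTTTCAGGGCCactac
The first pair, from different classes, carries the spelling of the 26 genes, and the last is that of the 7 H4 genes. No match was found in 21 genes, among them Hist2h2be and Hist1h2bc, which means only that the searched pattern is not in their annotated transcripts.

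Most H2A and H2B genes lie head to head and share the DNA between them. Among the 67 genes, 12 pairs of an H2A and an H2B gene had their starts on opposite strands 175 to 305 bases apart. The windows of 250 bases before and 50 bases after the start of 2 H2A genes (RefSeq, GRCm38.p6) are shown because each spans both starts of a pair that includes an abundant H2B gene, and the window of Hist3h2a because this gene had the smallest adjusted p-value of the tested histone genes. Capitals mark matches on either strand to the octamer motif (ATTTGCAT, or ATGCAAAT on the other strand), to the CCAAT box and to the letters TATAAA, each also as its reverse complement. The matches do not overlap each other in these 3 windows.
Hist2h2ac and Hist2h2be, chr3:96220831-96221130, minus strand: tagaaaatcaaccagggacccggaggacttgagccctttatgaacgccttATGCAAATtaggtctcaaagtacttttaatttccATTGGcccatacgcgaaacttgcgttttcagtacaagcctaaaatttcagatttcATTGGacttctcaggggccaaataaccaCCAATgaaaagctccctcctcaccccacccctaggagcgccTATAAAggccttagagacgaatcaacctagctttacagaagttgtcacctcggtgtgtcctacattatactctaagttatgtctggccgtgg
Hist1h2ac and Hist1h2bc, chr13:23683910-23684209, minus strand: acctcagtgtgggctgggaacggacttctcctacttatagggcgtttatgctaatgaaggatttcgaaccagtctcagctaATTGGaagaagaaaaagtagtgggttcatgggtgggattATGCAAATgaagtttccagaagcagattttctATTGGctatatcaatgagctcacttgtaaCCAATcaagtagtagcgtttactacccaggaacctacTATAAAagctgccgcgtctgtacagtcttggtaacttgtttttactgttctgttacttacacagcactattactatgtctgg
Hist3h2a, chr11:58954435-58954734, plus strand: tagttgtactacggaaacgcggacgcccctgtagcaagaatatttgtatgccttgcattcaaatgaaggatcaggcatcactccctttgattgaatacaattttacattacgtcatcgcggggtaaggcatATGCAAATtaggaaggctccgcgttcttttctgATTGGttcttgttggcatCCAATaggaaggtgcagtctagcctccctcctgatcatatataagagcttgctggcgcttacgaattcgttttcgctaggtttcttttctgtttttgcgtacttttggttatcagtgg
All 3 windows held the octamer motif and CCAAT matches, and TATAAA was present in the shared windows of both pairs but not in that of Hist3h2a.

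A RefSeq window could be matched by symbol for 62 of the 67 genes. The octamer motif occurred in 7 of 18 H2A and 7 of 16 H2B windows and in none of the 6 H1, 10 H3 and 12 H4 windows, against 1.97% of 27025 windows of all genes. CCAAT or its reverse occurred in all H1, H2A, H2B and H3 windows matched but in 3 of 12 H4 windows, against 41.1% of all windows. TATAAA or its reverse occurred in 35 of the 62, against 15.7%. Windows of head-to-head pairs largely cover the same DNA, so 1 match can count in both classes. The octamer shared by Hist1h2ae and Hist1h2bg counts so, as do those of Hist1h2ah and Hist1h2bk and of Hist1h2aa and Hist1h2ba. The counts are therefore of windows and not of separate sites. A match is a run of letters and was not taken as a binding site.

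The libraries held 29587171 to 61709131 reads on protein-coding genes, so that 1 read was worth 0.634 to 1.27 normalised read counts (reads divided by the size factor of the library) and a count of 3 reads, the detection floor used here, was worth 1.90 to 3.82. Tet3 itself averaged 2036 ± 130 normalised read counts in siCTL against 1957 ± 21.2 (SD, n = 3 each; log2 change -0.06, 95% interval -0.26 to 0.15, exact two-sided permutation p = 0.4 over 20 assignments, smallest possible 0.1; adjusted p = 0.699 in limma). Tet3 mRNA was thus not detectably lower, its log2 change became 0.03 under library size scaling and after removal of the GC trend, and the second group is called the libraries labelled siTET3. Of 10 macrophage markers, 8 exceeded 100 normalised read counts in every library, Mertk reached at most 34.2 and Cd163 was at 0. Of 15 markers of other cell types, 12 stayed under 10 in every library. The 3 fibroblast markers summed to 395 in siCTL replicate 2 and to 2.55 to 8.10 in the other 5 libraries, with Col1a1 at 0 throughout. The same library had a trend with base content, with genes of 60% GC standing 1.01 higher on the log2 scale relative to genes of 40% GC, where the other libraries lay between -0.40 and 0.14. The median GC content was 57.9% for all 67 histone genes, tested or not, and 50.2% for all genes tested. Hist3h2a, Hist2h2be, Hist2h3c1 and Hist1h3d, which had an unadjusted p under 0.05 in limma, held 45.9%, 45.3%, 48.8% and 49.6%. Hist1h1b, which also had one, held 55.6%. The trend of siCTL replicate 2 was -0.68 on the log2 scale at 40% GC and 0.33 at 60%. Several results are therefore also given without siCTL replicate 2. The part of either feature in the other results was not tested.

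Histone genes were a minor fraction of these libraries. In order of replicate number, as in all group values below, siCTL libraries had 4156, 3608 and 6112 histone reads and siTET3 libraries 5627, 6000 and 3987. These were 0.0126%, 0.0105% and 0.00990% of all reads in siCTL and 0.0151%, 0.0130% and 0.0135% in siTET3. The share was thus higher in each library labelled siTET3 than in any siCTL library. On average over the 6 libraries 6 genes exceeded 100 normalised read counts, 35 lay between 10 and 100, and 26 lay under 10. The linker histone gene Hist1h1c alone held 44% of all normalised read counts of the 67 genes, and Hist2h2be and Hist1h2bc, which encode H2B, held 15.8% and 12.2%. These 3 genes made up 66.2% to 76.5% of the histone total of a library.

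Per kb of exon, the levels ranged from 0 to 1363 normalised read counts, with Hist1h1c first, then Hist1h2bc at 511, Hist2h2be at 291 and Hist1h4i at 202 (averages over 6 libraries). The median level per kb was 31.2 for H1, 11.3 for H2A, 23.1 for H2B, 18.8 for H3 and 26.2 for H4. A poly(A) signal hexamer (AATAAA or ATTAAA) lay in the last 50 annotated bases of 17 histone genes, against 72.6% of the other genes. These 17 held 69.9% of the histone normalised read counts, but their median level per kb, 11.9, was below the 22.5 of the 50 genes without the hexamer. Not divided by length, the median level was 18.1 for the 17 and 12.7 for the 50. The 17 include the abundant Hist1h1c, Hist2h2be, Hist1h4i and Hist3h2a, which carried the sum. Genes annotated for at least 100 bases past the stem-loop numbered 23 and held 61.9% of the histone normalised read counts, whereas the 23 genes that end sooner held 5.88% and the 21 without a match 32.3%. The median level per kb ran the other way, at 16.3, 22.7 and 23.0, and Hist1h1c alone supplied 44% of all histone normalised read counts to the first set. Not divided by length, the median levels were 21.6, 10.4 and 11.5. The first set was chosen by annotated length past the stem-loop, and this length enters the division by exon length.

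**Figure D1:**
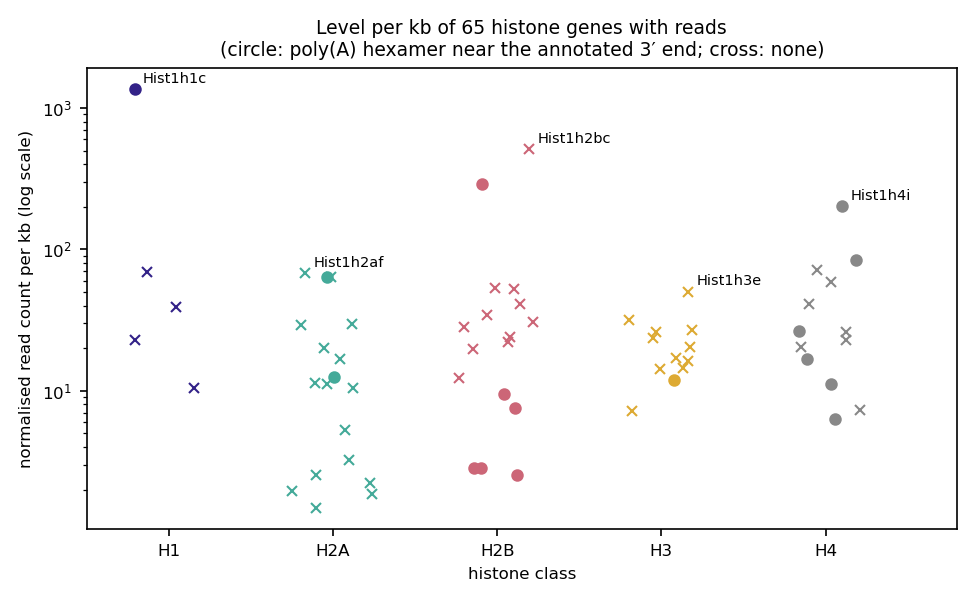
Level of each of the 65 histone genes with reads, in normalised read counts per kb of exon averaged over 6 libraries (vertical log axis), by histone class (horizontal axis). Circles mark genes with a poly(A) hexamer near the annotated 3′ end and crosses those without, and Hist1h1c at 1363 stands far above the class medians of 11.3 to 31.2.

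Near-identical coding sequences limit how far single histone genes can be told apart. For 32 of the 67 genes fewer than 50% of their 50-base windows were found in no other annotated transcript, and all windows were unique for 4 genes. The median unique share was 98.9% for H1, 27.0% for H2A, 53.1% for H2B, 38.0% for H3 and 60.5% for H4. Exons of 24 genes overlap those of another gene, and no source states whether strand was used in counting.

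The summed histone level was higher in the libraries labelled siTET3. It was 4810, 4570 and 3874 normalised read counts in siCTL and 5734, 4904 and 5076 in siTET3, that is 4418 ± 486 against 5238 ± 438 (SD, n = 3 each), a ratio of means of 1.19. The groups did not overlap, although the highest siCTL library and the lowest siTET3 library lay close together. Without the 3 most abundant genes the sums were 1388, 1073 and 944 in siCTL and 1649, 1322 and 1715 in siTET3. The ratio of these was 1.38, and siTET3 replicate 2 then fell below siCTL replicate 1. Such sums over chosen genes carry no test here. In bulk RNA, more cells of a kind, such as cells in S phase, and more RNA per cell cannot be told apart.

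By class, the sum of the 18 H2A genes was the only one of the 5 whose groups did not overlap, under the deposited scaling and under library size, TMM and GC-corrected scaling alike. H2A summed to 250, 227 and 179 normalised read counts in siCTL and to 338, 306 and 362 in siTET3 (218 ± 36.3 against 335 ± 27.6, SD, n = 3 each, ratio 1.54). All 3 libraries labelled siTET3 were above the highest siCTL library, and the ratio held at a log2 of 0.49 to 0.73 when any 1 library was left out. Hist3h2a makes up 49.4% of this sum. Without Hist3h2a the groups of the remaining H2A sum overlapped, with siTET3 replicate 2 below siCTL replicates 1 and 2. The sum of H1 was 2284, 2612 and 1924 against 2805, 2426 and 2259, a ratio of 1.10 with overlapping groups, and 89.2% of it was Hist1h1c. H2B summed to 1588, 1358 and 1331 against 1856, 1556 and 1789, with a ratio of 1.22 and siCTL replicate 1 above siTET3 replicate 2. For H3 the sums were 238, 133 and 139 against 266, 182 and 239, and for H4 they were 450, 241 and 301 against 469, 433 and 428. The ratios were 1.35 for H3 and 1.34 for H4, and in both classes siCTL replicate 1 lay within the range of the libraries labelled siTET3 while the other siCTL libraries lay below it.

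**Figure D2:**
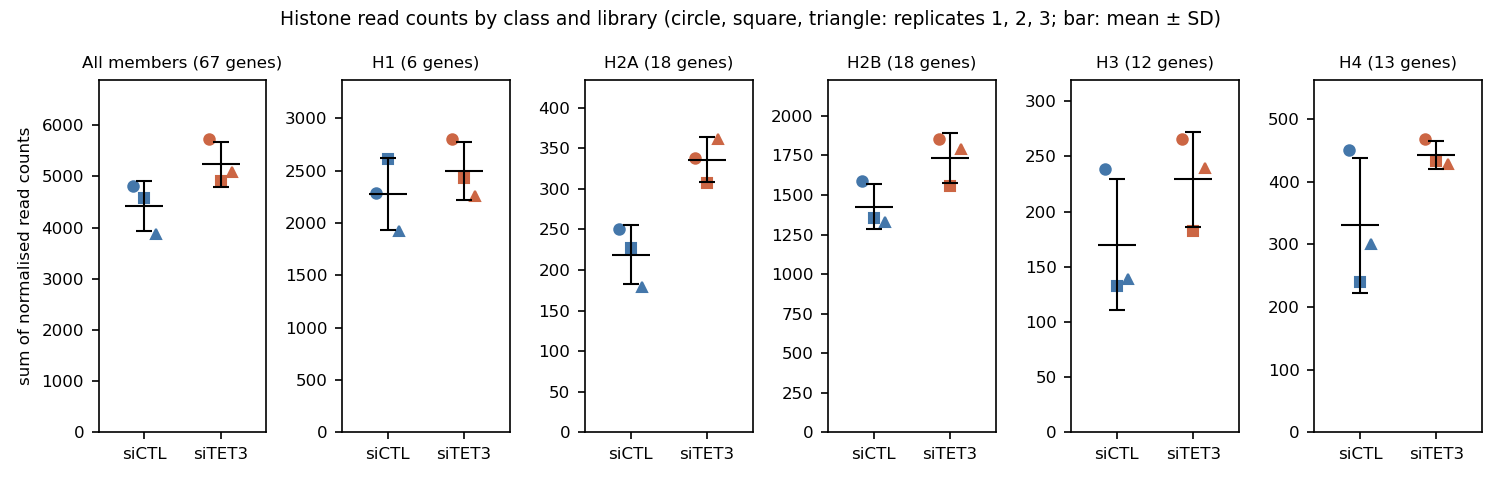
Summed normalised read counts of all 67 histone genes and of each class (vertical axes, starting at 0) in the siCTL and siTET3 libraries (horizontal axis). Points are libraries and horizontal marks with bars are the mean ± SD of 3, and the groups are separate for all genes and for H2A but overlap for H1, H2B, H3 and H4.

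Gene by gene, 41 of the 67 reached a mean of 10 normalised read counts over the 6 libraries and were tested in a fit over 11591 genes. No histone gene passed a Benjamini-Hochberg adjusted p of 0.05 in limma in either direction, where 0.293% of all genes tested were called higher in siTET3 and 0.0604% lower. Without adjustment, 5 of the 41 had a p under 0.05, all of them higher in siTET3 (12.2%), against 6.25% of all genes tested that were higher at this p and 6.95% that were lower. These were Hist3h2a, Hist2h3c1, Hist1h3d, Hist2h2be and Hist1h1b. edgeR's quasi-likelihood test on the recovered reads called none either, with 0.285% of all genes called higher and 0.0604% lower. DESeq2 on the same reads called 2 higher, Hist3h2a and Hist2h3c1, and none lower, where 1.85% of all genes were called higher and 1.88% lower. The authors' deposited table also has these 2 of 44 histone genes with an adjusted p under 0.05, at 0.00674 for Hist3h2a and 0.0190 for Hist2h3c1, where 1.55% of its genes were higher and 1.39% lower.

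The log2 change was positive in 33 of the 41 tested genes, with a median of 0.48, whereas 49.3% of all genes tested had a positive change and their median was -0.0049. Of all 67 genes, 51 had a higher mean in siTET3, 14 a lower one and 2 were at 0 throughout. Without siCTL replicate 2 the median of the 41 was 0.42, with 31 positive, and with the GC trend removed it was 0.56, with 36 positive. Over all 17 alternatives it ranged from 0.29 with a pseudocount of 10 to 0.63 without siTET3 replicate 2, and the fewest positive of the 41 were 28, without siCTL replicate 3 (median 0.32). With both steps, siCTL replicate 2 left out and the GC trend removed, 1 histone gene, Hist3h2a, was called higher in limma (adjusted p = 0.0462), where 2.22% of all genes tested were called higher and 1.41% lower. In 8 of the 41 (19.5%) all libraries labelled siTET3 lay above all siCTL libraries, called separated upward here, and in none below, where 16.1% of all genes tested were separated upward and 15.5% downward. The 8 were Hist2h2be, Hist3h2a, Hist1h1b, Hist2h3c1, Hist1h2bb, Hist1h3d, Hist1h3a and Hist1h2bm, which belong to H1, H2A, H2B and H3. Of these, Hist2h3c1, Hist1h2bm and Hist1h3a had siCTL means of 5.87, 5.49 and 9.27 and passed the filter of 10 only through siTET3. Hist1h2ak, Hist1h2bn and Hist1h4b, also among the 33 positive genes, did so with siCTL means of 8.71, 8.33 and 8.83. The filter on the mean over both groups can thus admit a gene because it was high in 1 group.

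**Figure D3:**
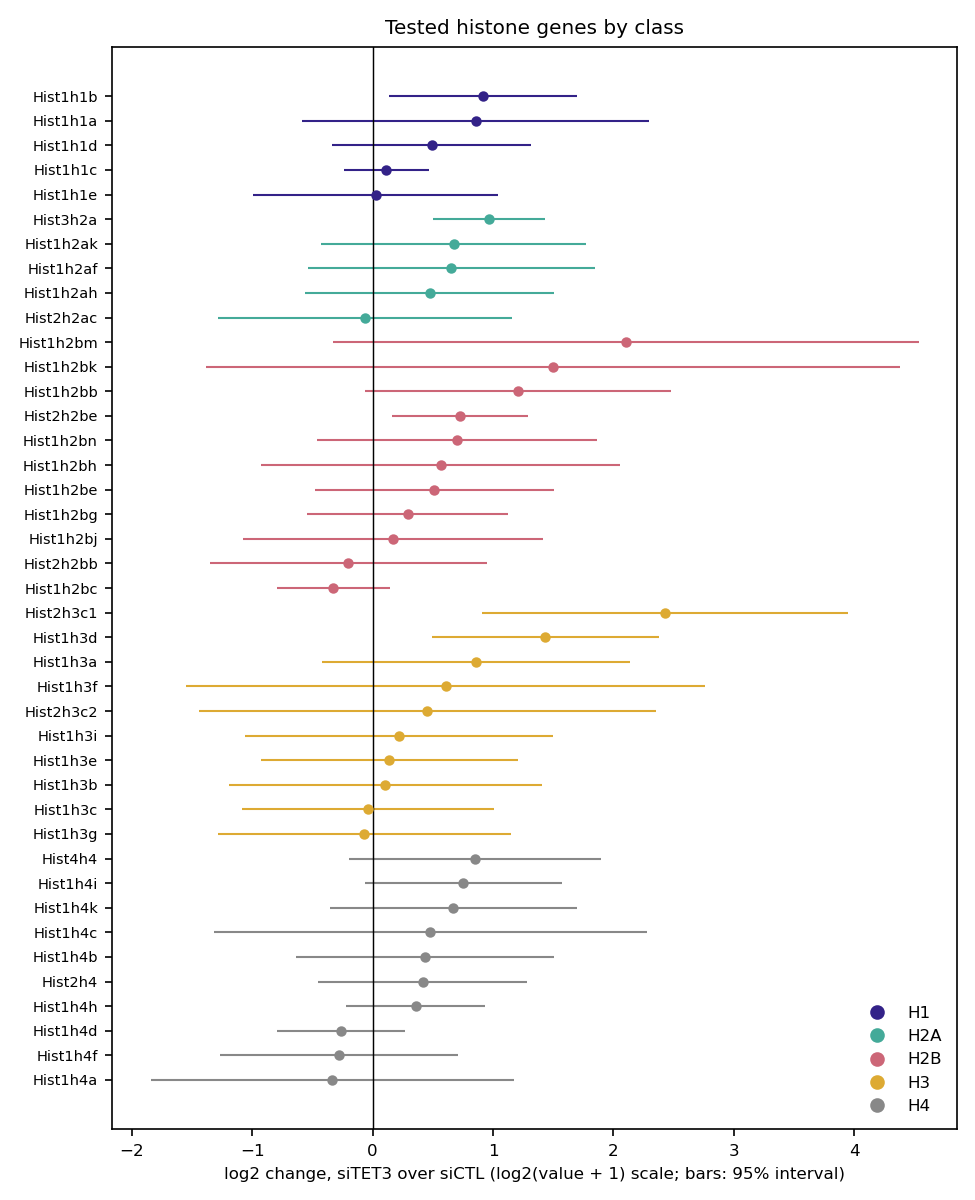
Log2 change (siTET3 over siCTL, horizontal axis) of the 41 tested histone genes (vertical axis, grouped by class) with 95% intervals from limma on log2(value + 1). The points of 33 genes lie to the right of 0, the intervals of 5 genes exclude 0 before adjustment, and the largest change is the 2.43 of Hist2h3c1.

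Among linker histones, Hist1h1c dominated and differed little between the groups. It had 2112, 2261 and 1750 normalised read counts in siCTL and 2495, 2243 and 1897 in siTET3. The groups overlapped, and the log2 change was 0.11 (95% interval -0.24 to 0.47, adjusted p = 0.640 in limma). Hist1h1e had 91.4, 218 and 97.6 against 162, 80.1 and 158, and Hist1h1d had 53.2, 93.7 and 48.2 against 85.6, 64.6 and 122. In both, siCTL replicate 2 was the highest siCTL library and siTET3 replicate 2 the lowest of its group. Hist1h1e shares 23.8% of its windows with Hist1h2be, whose exons overlap it on the same strand, so its value is uncertain. Hist1h1b, all of whose windows were unique, had 20.8, 19.0 and 18.4 against 34.6, 27.8 and 54.7. Every library labelled siTET3 was above every siCTL library, and the siCTL values lay close together (log2 change 0.92, 95% interval 0.14 to 1.70, adjusted p = 0.346 in limma). Hist1h1a, the least abundant of the 5, had 5.79, 20.3 and 10.1 against 28.5, 10.6 and 26.7 with overlapping groups, and Hist1h1t, the linker histone gene of the testis, had no read in any library.

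Of the H2A genes, 5 of 18 could be tested, and Hist3h2a stood out by its level and its separation. Its values were 119, 78.5 and 82.4 normalised read counts in siCTL and 172, 190 and 180 in siTET3, from 295 and 542 reads in all. All libraries labelled siTET3 lay well above all siCTL libraries, and they lay close together. The means were 93.4 ± 22.5 and 180 ± 8.74 (SD, n = 3 each), and the log2 change was 0.97 (SE 0.19, 95% interval 0.51 to 1.43). The adjusted p was 0.170 in limma, 0.194 in edgeR and 0.00212 in DESeq2, and over the 17 alternatives it ranged from 0.00212 to 0.660 while the log2 change stayed between 0.79 and 1.15. Hist3h2a (chr11:58954685-58956830, plus strand, a single exon) shares 31.5% of its windows with Trim17, whose exons overlap it on the same strand, and Gm44313 overlaps it on the other strand. Reads of these genes cannot be told apart in the shared stretch.

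The other tested H2A genes were lower and overlapped between the groups. Hist2h2ac had 33.6, 51.9 and 17.1 against 32.6, 18 and 44.6, with no order between the groups (log2 change -0.06, 95% interval -1.28 to 1.16, and 0.30 without siCTL replicate 2). Hist1h2af had 22.0, 32.9 and 10.1 against 45.9, 22.9 and 29.3 (0.65). Hist1h2ah and Hist1h2ak, with log2 changes of 0.47 and 0.67, averaged 10.2 and 8.71 in siCTL and 14.0 and 14.3 in siTET3. Of the 13 H2A genes under 10 on average, Hist2h2aa1 had 1.16, 8.87 and 28.5 in siCTL and 1.02, 0 and 0 in siTET3. By value every siCTL library was above every library labelled siTET3, and the authors' deposited log2 change was -5.15 with no adjusted p. Of its 53 siCTL reads 45 came from siCTL replicate 3, and siCTL replicate 1 and siTET3 replicate 1 had 1 read each, under the floor of 3 reads, so these groups are not set apart. Of its windows 89.4% are shared with Gm20634, the same-strand gene that also covers Hist2h3c1.

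The 2 abundant H2B genes had log2 changes of opposite sign, and neither passed the adjusted threshold. Hist2h2be had 748, 405 and 597 normalised read counts in siCTL and 1096, 888 and 844 in siTET3. Every library labelled siTET3 was above every siCTL library, with siCTL replicate 2 the lowest of all. The means were 583 ± 172 and 943 ± 134 (SD, n = 3 each), and the log2 change was 0.73 (95% interval 0.16 to 1.29, adjusted p = 0.332 in limma, 0.122 in DESeq2, 0.121 to 0.660 over the alternatives). Without siCTL replicate 2 the log2 change was 0.49. All windows of Hist2h2be (chr3:96221119-96223738, plus strand) were unique, so sharing with another histone gene does not enter its count. Hist1h2bc had 563, 831 and 582 against 495, 451 and 620. The groups overlapped and siCTL replicate 2 was the highest of all (log2 change -0.32, 95% interval -0.79 to 0.14, adjusted p = 0.409 in limma), with -0.15 without that library.

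The remaining 9 tested H2B genes averaged under 50 normalised read counts in each group. Hist1h2bb had 17.4, 5.07 and 17.1 against 30.6, 21.3 and 34.4, and Hist1h2bm had 0, 10.1 and 6.34 against 14.3, 11.4 and 33.1. Both were separated upward in siTET3, by log2 changes of 1.21 (95% interval -0.06 to 2.48) and 2.10 (-0.33 to 4.53), on 46 and 18 reads in siCTL. With each library left out in turn the changes ranged from 0.68, without siCTL replicate 2, to 1.48 for Hist1h2bb and from 1.04, without siCTL replicate 1, to 2.78 for Hist1h2bm. Hist1h2be, Hist1h2bg, Hist1h2bh, Hist1h2bj, Hist1h2bk and Hist1h2bn had positive changes of 0.17 to 1.5 with overlapping groups, and Hist2h2bb had -0.20. The 1.5 of Hist1h2bk rests on siCTL replicate 2, which had no read of it, and was 0.06 without that library. Hist1h2ba, which encodes the H2B of the testis, had no read.

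**Figure D4:**
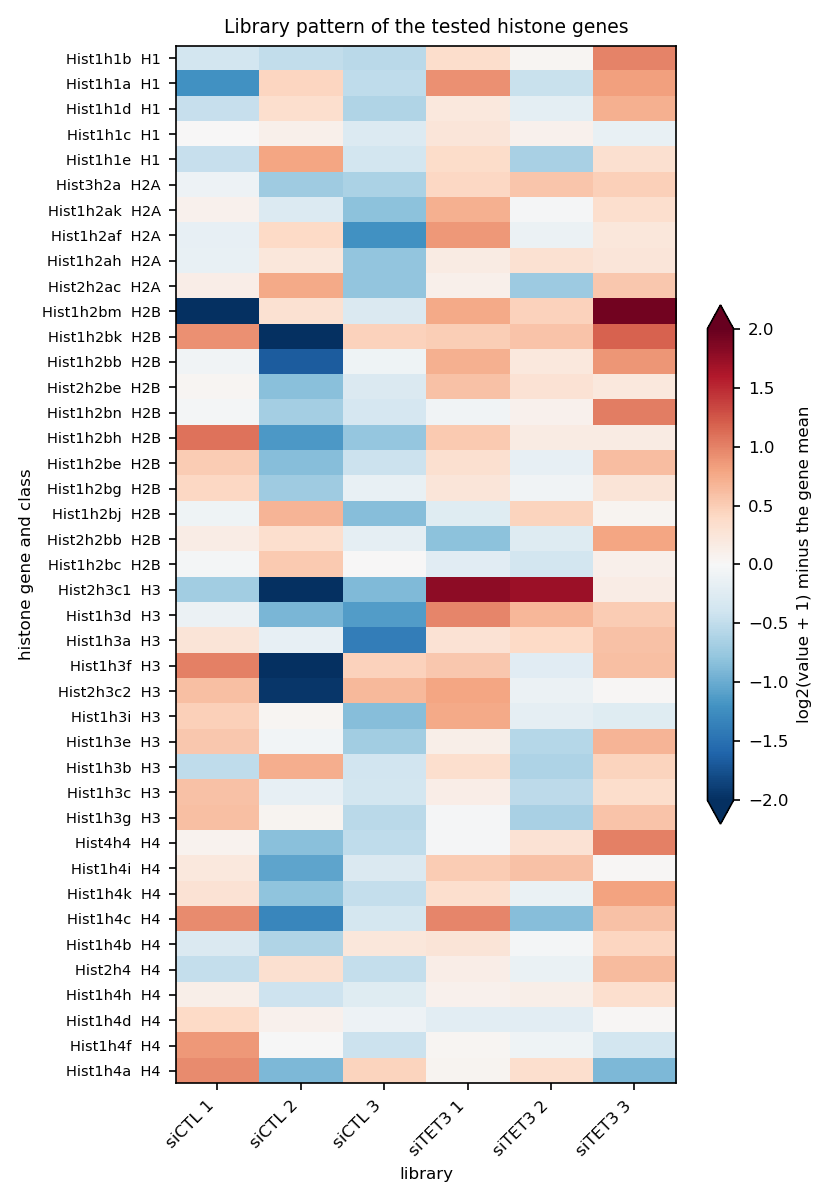
Deviation of log2(value + 1) from the mean of each gene (colour scale) for the 41 tested histone genes (rows, by class) in the 6 libraries (columns). siCTL replicate 2 was the lowest library for 18 genes and siCTL replicate 3 for 14, while siTET3 replicate 3 was the highest for 15 and siTET3 replicate 1 for 10.

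Of 12 H3 genes, 10 were tested, and 3 were separated upward, where 16.1% of all genes tested were separated upward and 15.5% downward. Hist1h3d had 16.2, 8.87 and 7.61 normalised read counts in siCTL and 35.7, 28.6 and 25.5 in siTET3. The lowest library labelled siTET3 was above the highest siCTL library (log2 change 1.43, 95% interval 0.49 to 2.38, adjusted p = 0.294 in limma, 0.0589 in DESeq2 and 0.0589 to 0.660 over the alternatives), and 75.2% of its windows were unique. Hist2h3c1 had the largest change, with 8.10, 2.53 and 6.97 against 49.9, 47.4 and 15.3, from 20 and 119 reads. Here siTET3 replicate 3 lay nearer to the siCTL libraries than to its own group. The log2 change was 2.43 (SE 0.63, 95% interval 0.91 to 3.95, adjusted p = 0.282 in limma, 0.235 in edgeR and 0.00825 in DESeq2; 0.00825 to 0.644 over the alternatives). None of the windows of Hist2h3c1 (chr3:96246685-96248509, plus strand) is unique, because Gm20634 covers all of them on the same strand.

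Gm20634 also covers most of the windows of Hist2h2aa1, which had more reads in siCTL. The sum of Hist2h2aa1 and Hist2h3c1, looked at after their values were seen, was 9.26, 11.4 and 35.5 in siCTL and 51.0, 47.4 and 15.3 in siTET3. In the sum the groups overlapped, with siCTL replicate 3 high and siTET3 replicate 3 low. The sum of Hist2h3c1 and Hist2h3c2 was 27.8, 5.07 and 27.3 against 72.4, 58.8 and 28.0, which do not overlap but nearly touch. With Hist2h2aa1 and Hist2h2aa2 added to this pair it was 31.3, 15.2 and 57.0 against 75.4, 59.7 and 30.6, and the groups overlapped. Hist1h3a, the other separated H3 gene, had 13.9, 10.1 and 3.80 against 14.3, 15.5 and 17.8, a narrow gap. The other 7 tested H3 genes, Hist1h3b, Hist1h3c, Hist1h3e, Hist1h3f, Hist1h3g, Hist1h3i and Hist2h3c2, had log2 changes between -0.07 and 0.61 with overlapping groups. Without siCTL replicate 2, Hist1h3f went from 0.61 to -0.43 and Hist2h3c2 from 0.45 to -0.40.

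None of the 10 tested H4 genes had groups that did not overlap, where 16.1% of all genes tested were separated upward and 15.5% downward. The most abundant, Hist1h4i, had 160, 65.9 and 112 normalised read counts in siCTL and 197, 208 and 140 in siTET3. The groups overlapped, since siCTL replicate 1 lay above siTET3 replicate 3 (log2 change 0.75, 95% interval -0.07 to 1.57, adjusted p = 0.378 in limma), and without siCTL replicate 2 the change was 0.42. Hist1h4d had 61.3, 49.4 and 43.1 against 39.7, 40 and 47.1, with siTET3 replicate 3 inside the siCTL range (log2 change -0.26, 95% interval -0.80 to 0.27). Hist1h4f and Hist1h4a were also negative, at -0.28 and -0.33. Positive changes of 0.36 to 0.85 were seen for Hist1h4h, Hist2h4, Hist1h4k, Hist1h4c, Hist4h4 and Hist1h4b, of which Hist1h4c went from 0.48 to -0.05 without siCTL replicate 2. Hist4h4 had 17.4, 8.87 and 11.4 against 16.3, 20.4 and 34.4, with siTET3 replicate 1 inside the siCTL range.

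Below the mean of 10, 22 genes had at least 3 reads in some library, and 4 had not (Hist1h1t, Hist1h2ba, Hist1h2an and Hist2h2aa2). The 22 were Hist1h2aa, Hist1h2ab, Hist1h2ac, Hist1h2ad, Hist1h2ae, Hist1h2ag, Hist1h2ai, Hist1h2ao, Hist1h2ap, Hist2h2aa1 and Hist2h2ab of H2A, Hist1h2bf, Hist1h2bl, Hist1h2bp, Hist1h2bq, Hist1h2br and Hist3h2ba of H2B, Hist1h3h and Hist2h3b of H3, and Hist1h4j, Hist1h4m and Hist1h4n of H4. Hist3h2ba, which lies in the Hist3 cluster with Hist3h2a, had no read in siCTL and 2, 4 and 4 reads in siTET3. Hist1h2bp had 3.47, 0 and 1.90 normalised read counts against 14.3, 7.36 and 5.09. Hist1h2bp was separated upward, at levels where a few reads set the value. For Hist3h2ba all siCTL libraries and siTET3 replicate 1 were under the floor of 3 reads, so its groups are not set apart. The authors' deposited log2 changes were 4.26 for Hist3h2ba and 2.29 for Hist1h2bp, with no adjusted p. A read count of 0 here does not show that a gene was silent, only that no polyadenylated read was assigned to it at this depth.

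In the head-to-head pairs, the H2B gene had the higher level per kb in 11 of 12, the exception being Hist1h2ba and Hist1h2aa, where Hist1h2aa stood at 1.86 and Hist1h2ba at 0. Hist1h2bc stood at 511 against 2.24 for Hist1h2ac across 250 bases, and Hist2h2be at 291 against 63.4 for Hist2h2ac across 238 bases. These are the pairs whose shared windows are printed above. In the other 9 pairs the H2B gene was at most 5.12 times the H2A gene per kb, on few reads for the least abundant ones, and in some it was nearly equal. These ratios depend on annotated exon length. Hist1h2ap and Hist1h2br, nearly equal per kb, averaged 1.21 and 5.59 normalised read counts when not divided by length. Over all genes of each class the median share of unique windows was 27.0% for H2A and 53.1% for H2B. The part of this difference in the levels of the pairs was not tested. Within the pair on chromosome 3 the H2B gene was higher in all libraries labelled siTET3, while the H2A gene, with a log2 change of -0.06, showed no order.

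**Figure D5:**
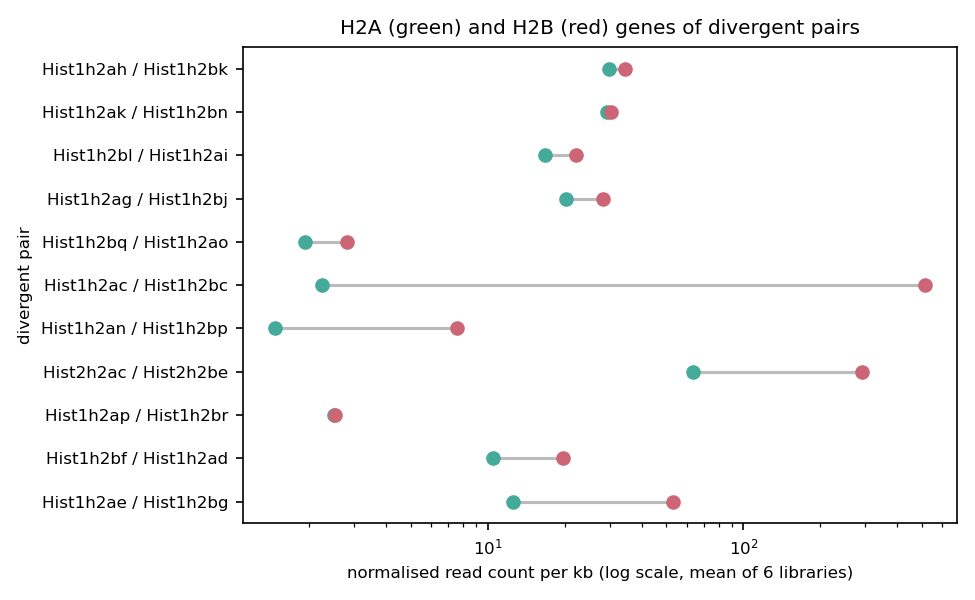
Levels in normalised read counts per kb (log axis, average over 6 libraries) of the H2A gene (green) and the H2B gene (red) of 11 head-to-head pairs; the pair with Hist1h2ba, which is at 0, cannot be drawn on a log axis. The H2B gene is to the right in all 11, by most in the pair Hist1h2ac and Hist1h2bc, with 2.24 and 511. It is so by very little in the pair Hist1h2ap and Hist1h2br, with 2.52 and 2.53 per kb (1.21 and 5.59 not divided by length).

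Genes of the histone pathway outside the clusters were read from the same limma fit. Of 33 tested genes for 3′ end processing and decay of histone mRNA, none passed the adjusted threshold and none had an unadjusted p under 0.05. Their median log2 change was -0.04, and 14 were positive. The 4 with the smallest p were Zcchc11, a terminal uridylyltransferase that acts on histone mRNA in decay, at 0.40, Casp8ap2 (FLASH, a cofactor of histone mRNA processing) at 0.30, the helicase gene Upf1 at -0.16 and Snrpe, a component of the Sm ring, at 0.48. Of 27 histone chaperone genes none passed either, with a median of -0.12. The first of these were Ubn2 (0.38), a subunit of the HIRA complex, Hjurp (0.22), the chaperone of CENP-A, Atrx (0.20) and Asf1a (0.63), a carrier of H3 and H4. Of 48 genes of DNA replication and S phase none passed, with 25 positive and a median of 0.02, and E2f7 (-0.55), Cdc6 (-0.35), Rrm1 (0.26) and Pold2 (-0.37) came first by p. Without adjustment 2 of the chaperone genes and 4 of the replication genes had a p under 0.05, against 13.2% of all genes tested, and neither edgeR nor DESeq2 called a gene of these 3 lists.

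Histone variant genes outside the clusters can give polyadenylated mRNAs, and whether each also gives mRNA without a tail was not measured here. H2afx, whose product is phosphorylated at DNA breaks, had 1152, 816 and 882 normalised read counts in siCTL and 2248, 1992 and 1905 in siTET3. The groups were far apart (950 ± 178 against 2048 ± 179, SD, n = 3 each, log2 change 1.12, adjusted p = 0.051 in limma, 8.59e-08 in DESeq2 and 8.59e-08 to 0.373 over the alternatives), with calls in 5 of 17 alternatives. Cenpa, the centromeric H3 variant, had 1655, 1262 and 1373 against 2371, 2289 and 2144 (log2 change 0.67, adjusted p = 0.137 in limma) and was called in 3. H2afj, 3828 bases from Hist4h4 on the other strand, had 5696, 7488 and 3442 against 3437, 2385 and 2982 with a log2 change of -0.86 (adjusted p = 0.339 in limma), and siCTL replicate 3 and siTET3 replicate 1 were nearly equal. It falls outside the naming rule and was named after its values were seen. H1f0, a linker histone known from differentiated cells, had a log2 change of 0.29 with an adjusted p of 0.383 in limma, and was called in 2 alternatives, both of which leave out siCTL replicate 2. None of the 10 tested variants was called in limma or edgeR, DESeq2 called H2afx and Cenpa higher (1.85% of all genes), 3 had an unadjusted p under 0.05 (13.2% of all genes), and their median log2 change was 0.10.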

How the data were processed

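The authors deposited a signal value per gene and library, namely gene counts over a size factor for each library. Read out of the values, 100% came to whole reads to within 0.001 reads. The authors' own log2 fold changes and p-values are in the deposited table too, and their direction, siCTL over siTET3, was turned here. Per the submitters' processing notes the build was GRCm38 (mm10). Aligner and counter: not given in the sources used here.

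The test was limma 3.58.1 (R 4.3.3) with a variance trend on log2(value + 1), over the 11591 genes with a mean of at least 10. Fold changes are on this scale, on which the change of a low gene depends on the pseudocount and can be smaller or larger than in a count model (Hist1h2bk 1.5 in limma and 0.62 in edgeR). Adjustment was by Benjamini-Hochberg with a threshold of 0.05. edgeR 4.0.16 and DESeq2 1.42.0 were run on the recovered reads. The design foresaw edgeR as the main test for raw counts, and the limma test was used because the deposited values are normalised. The other alternatives changed the scaling, the filter, the pseudocount, the libraries, a replicate block and a GC trend (loess). The limma code was tested on simulated data. The genes and lists described here were chosen with earlier results of these data known. The rule names Tet3, every histone gene with a mean of at least 10, the lower ones with 3 reads, and of each list the genes called under any setting or else the 4 with the smallest p. H2afj was named outside it.

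Identifiers of all 67 histone genes matched GENCODE M21 (GRCm38) with the same version, and coordinates, 1-based, stem-loops, hexamers and 50-base windows came from its transcripts. The stem-loop was searched as the consensus of histone mRNAs, in any transcript of a histone gene and in the longest coding transcript of the others. Promoter windows are RefSeq's (GRCm38.p6), matched by symbol or synonym and chromosome. Sums over genes carry no test. Depth limits low genes, and floors cover counting error only.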

Additional observations from a re-analysis of the deposited data

How the results depend on the processing

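No histone gene was called in limma under the main setting, and 0 were called under 15 of 17 alternatives. DESeq2 called 2 higher, and removing the GC trend together with siCTL replicate 2 left 1, Hist3h2a. The count of histone variants called higher, 0 in the main setting, was 2 with DESeq2, 1 with a mean of at least 50, 3 with the GC trend removed without siCTL replicate 2, and 0 to 3 when each library was left out. The log2 change of Tet3 turned to 0.029 with library size scaling and to 0.034 with the GC trend removed, also with the replicate block.

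Of 663 values of single histone genes under an alternative, 617 kept their direction and side of the threshold, 3 passed the threshold and 43 changed sign, in 14 genes with small or imprecise changes. Hist1h1e turned to -0.025 with edgeR and -0.023 with DESeq2. Library size scaling turned Hist1h3c to 0.040, Hist1h3g to 0.0097 and Hist2h2ac to 0.019. The GC correction, with or without the block, turned the same genes to 0.12, 0.25 and 0.24. The GC correction without siCTL replicate 2 turned Hist1h3f to -0.47, Hist1h4c to -0.083, Hist2h3c2 to -0.23, Hist1h3g to 0.14 and Hist2h2ac to 0.49. With each library left out, the log2 change ranged from -0.20 to 0.42 for Hist1h1e, -0.12 to 0.50 for Hist1h3b, -0.22 to 0.55 for Hist1h2bj, -0.23 to 0.25 for Hist1h3c, -0.17 to 0.46 for Hist1h3e, -0.37 to 0.24 for Hist1h3g, -0.87 to 0.059 for Hist1h4a, -0.15 to 0.51 for Hist1h3i, -0.48 to 0.30 for Hist2h2ac, -0.43 to 1.26 for Hist1h3f, -0.053 to 1.07 for Hist1h4c, -0.57 to 0.084 for Hist1h4f, -0.64 to 0.16 for Hist2h2bb and -0.40 to 0.89 for Hist2h3c2. The cause was not tested.

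The log2 ratio of the summed level ranged from 0.16 to 0.31 with each library left out, and the class sums of H1, H2A, H2B, H3 and H4 ranged from 0.03 to 0.25, 0.49 to 0.73, 0.23 to 0.37, 0.28 to 0.75 and 0.24 to 0.71. Same-numbered libraries did not deviate together (correlations 0.03, -0.06 and -0.10 over all genes tested), so no pairing by number was seen. Deviations from the mean of 3 libraries cannot exclude such a pairing. With the replicate block 1 gene in all was called higher, none lower and 0 histone genes. With no filter 65 histone genes were tested, 52 with a positive change, and 0 were called. At 10 to 100 normalised read counts a gene rests on few reads per library, and this depth limits what can be seen in such genes.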
